A study of Rattus norvegicus with 7 samples.

Results

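The genes of the BMP and TGF-beta signalling pathway were compared between the distal and the proximal colon crypts of the rat. They were chosen by symbol, with earlier results of these data known. The symbols were those of the BMP, GDF, TGF-beta, activin and inhibin ligands, their receptors and the Smads. Antagonists such as Bmper, Grem1, Nog, Chrd, Fst and Bambi, and the target genes Id1 to Id4 and Tgfbi, were included as well. This gave 57 of the 16468 genes kept from the expression table, of which 34 had 1 FPKM or more in 1 library and are called measured. FPKM counts sequenced fragments relative to transcript length and to the size of the library, so levels of different genes can be compared. Over all genes, 9847 were measured.

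The 2 libraries came from crypts, the epithelial pits of the colon, of the distal region and of the proximal region. Both were made from Sprague Dawley rats, an outbred strain, at 14 weeks of age, with no treatment named in the labels. Each library pooled the material of 7 rats, so animals cannot be told apart, and with 1 library per region no difference below has a replicate check. By its title, the series is about site differences of the colon in chromatin marks and proto-oncogene expression. The 5 chromatin immunoprecipitation libraries were not analysed here.

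BMP and TGF-beta ligands are secreted dimers that bring type I and type II receptor kinases together. The activated type I receptor phosphorylates receptor-activated Smads, which join Smad4 and act on genes in the nucleus. BMP ligands signal mainly through Smad1, Smad5 and Smad9, and TGF-beta and activins through Smad2 and Smad3. In the colon, BMP signalling is known to be low at the crypt base, where antagonists from the surrounding stroma hold it down, and high towards the surface, where it favours differentiation. The roles given here are those described for the mouse and human genes.

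The members at least 2-fold apart were 3 of 8 measured ligands, 2 of 3 antagonists and 3 of 5 targets. Of 9 receptors and 8 Smads, none was that far apart. Of all measured genes, 3.71% were at least 2-fold higher and 3.91% at least 2-fold lower in distal crypts. A count of 0 among these 17 receptors and Smads is therefore near the share of all genes. The roles were not tested against each other. Bmp2, Bmp6, Id1 and Id3 were higher in distal crypts by 2-fold or more, which is 4 of the 34 measured members (11.8%), against 3.71% of all measured genes. Lower in distal crypts by 2-fold or more were Bmper, Bmp3, Chrd and Tgfbi, also 4 of 34 (11.8%), against 3.91% of all measured genes. These counts use log2((distal FPKM + 1)/(proximal FPKM + 1)), called the log2 ratio below, which understates differences of low genes. On FPKM without the added 1, Tgfb1 (2.18-fold lower), Acvr1c (2.06-fold lower) and Bmp8a (2.07-fold higher in distal crypts) would also pass 2-fold. Of 35 members marked as tested in the authors' deposited table, 3 were called higher in distal crypts, namely Bmp2, Bmp5 and Id1 (8.57%, against 2.73% of all genes so marked). Another 4 were called lower in distal crypts in the authors' deposited table, Bmper, Bmp3, Chrd and Tgfbi (11.4%, against 2.69%).

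The median log2 ratio over the 34 measured members was 0.05, beside 0.09 over all measured genes. By its median the list lay near the middle of the table, and the differences sat in single genes. In the distal library 18 members were higher and 16 lower, beside 6044 higher and 3803 lower of all 9847 measured genes. The share of members on the distal side was thus somewhat smaller than that of all genes. The split of 4 and 4 members at least 2-fold apart depends on how the libraries are scaled against each other. It was 2 higher and 4 lower in the distal library after rescaling to a median log2 ratio of 0 over all genes, where 3.15% of all measured genes were higher and 4.34% lower. With equal upper quartiles it was 1 higher and 6 lower, beside 2.88% and 4.71% of all measured genes, so the distal count was then at the share of all genes. Equal upper quartiles moved the median log2 ratio of all measured genes by -0.16. Id1 and Id3 were below the 2-fold mark under both rescalings, at log2 ratios of 0.97 and 0.93 for the first and 0.90 and 0.86 for the second, and Bmp6 under the second, at 0.95.

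**Figure D1:**
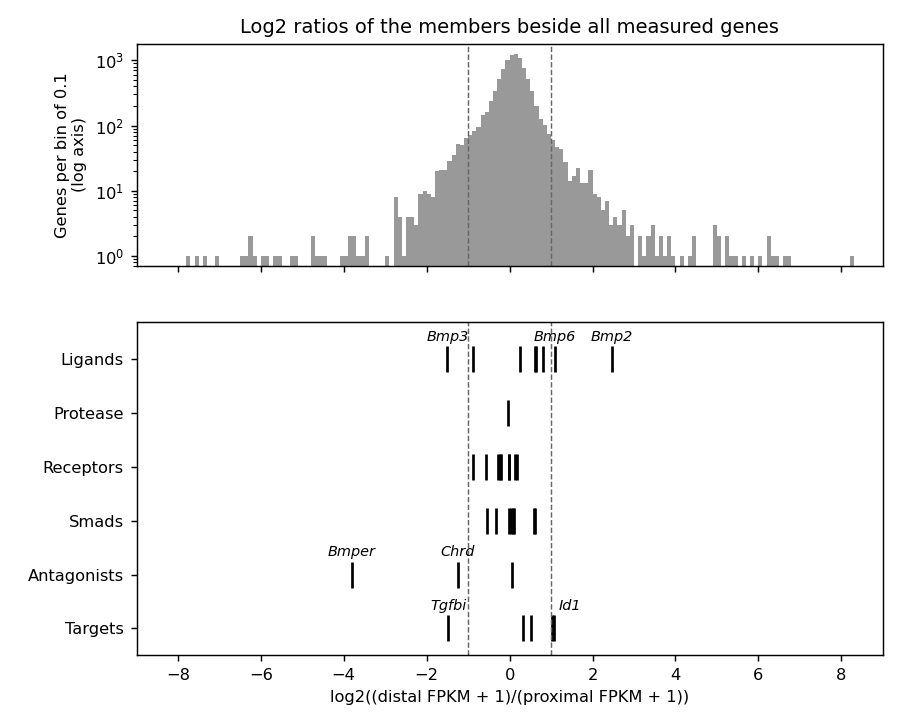
Log2 ratios of distal over proximal for all 9847 measured genes (upper panel, genes per bin on a log axis) and for the 34 measured members by role (lower panel, 1 tick per gene). Dashed lines mark a 2-fold difference. The 9 receptors and 8 Smads lie between them, as do 9097 of all 9847 measured genes. Of the members, Bmper, at -3.81, and Bmp2, at 2.47, lie furthest out.

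Promoter sequences from RefSeq, in the GRCr8 build, were available for 46 of the 57 members. The 250 bases before the annotated start are shown for 4 of them, namely the Id genes past 2-fold on the distal side and the secreted antagonists past 2-fold on the proximal side. Id1 (chr3:161671314-161671563 on the plus strand) and Id3 (chr5:153656041-153656290 on the plus strand) were the Id genes with the larger log2 ratios, which pass 2-fold only without rescaling. Bmper (chr8:30007916-30008165 on the plus strand) and Chrd (chr11:93685101-93685350 on the minus strand) were the secreted antagonists lower by 2-fold or more in distal crypts. Each is written 5′ to 3′ in the direction of its gene, and capitals mark GGCGCC, a GC-rich element found in BMP-responsive regions.
Id1: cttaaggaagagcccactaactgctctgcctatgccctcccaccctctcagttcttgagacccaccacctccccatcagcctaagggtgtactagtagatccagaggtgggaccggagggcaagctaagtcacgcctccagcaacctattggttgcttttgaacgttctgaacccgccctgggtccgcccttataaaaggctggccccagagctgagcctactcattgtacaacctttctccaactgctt
Id3: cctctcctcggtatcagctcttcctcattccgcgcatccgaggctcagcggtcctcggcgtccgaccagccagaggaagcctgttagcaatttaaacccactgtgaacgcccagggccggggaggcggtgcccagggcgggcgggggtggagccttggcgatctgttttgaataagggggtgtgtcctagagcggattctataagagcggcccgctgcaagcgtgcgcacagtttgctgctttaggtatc
Bmper: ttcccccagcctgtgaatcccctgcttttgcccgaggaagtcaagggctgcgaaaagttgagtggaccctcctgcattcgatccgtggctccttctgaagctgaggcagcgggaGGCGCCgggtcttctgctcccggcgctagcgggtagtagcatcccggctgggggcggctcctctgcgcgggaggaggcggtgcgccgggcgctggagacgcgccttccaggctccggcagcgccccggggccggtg
Chrd: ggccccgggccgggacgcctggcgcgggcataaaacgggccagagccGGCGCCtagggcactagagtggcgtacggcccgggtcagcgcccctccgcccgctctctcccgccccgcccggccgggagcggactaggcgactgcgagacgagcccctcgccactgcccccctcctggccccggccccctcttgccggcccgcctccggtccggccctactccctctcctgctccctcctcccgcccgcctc

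The element GGCGCC, which reads the same on both strands, begins at -136 in Bmper and at -203 in Chrd, where -1 is the last base before the start. It is not in these windows of Id1 and Id3. Tgfbi also holds it, at -112, while Bmp3 and Bmp6 do not, and Bmp2 had no promoter entry. It occurs in 10 of 31 promoters of measured members (32.3%), against 16.9% of 7452 promoters of measured genes and 8.69% of all 33469 promoters. These 31 promoters belong to 29 genes, and overlapping windows of Smad2, with the element at -234 and at -92, were counted separately. The median GC content of the windows was 62.8% for measured members and 60.0% for measured genes, and its part in these shares was not tested. The Smad box, CAGAC or GTCTG, is in 4 of the 31 promoters of measured members (12.9%), against 41.2% for measured genes, and in none of the 4 sequences shown. Its palindrome GTCTAGAC, whose letters contain neither of the other motifs, is in none of the members' windows and in 0.148% of those of measured genes. A match is a run of letters and not a shown binding site, and known BMP-responsive regions of the mouse Id1 gene lie further from the start than these windows reach.

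Of the 24 ligand genes, 8 were measured. Of these, 6 were higher in the distal library, as were 6044 of all 9847 measured genes. Bmp2 is a BMP ligand made by differentiated cells at the colon surface in mouse and human. The gene lies at chr3:121372692-121381235 in rn4, the build of the table. It was at 31.3 FPKM in distal crypts, against 4.82 FPKM in proximal crypts, which is 6.50-fold higher. Its log2 fold change was 2.70 in the authors' deposited table, with a standard error of 0.49 read back from the deposited test statistic and a q of 3.40e-06. This implied standard error comes from the model behind the table and does not measure variation between rats. Bmp2 had the highest FPKM of the 8 measured ligands in distal crypts, whereas 4 of them lay above it in proximal crypts, with Bmp3 the highest.

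Bmp3, a divergent BMP that opposes other BMP ligands through the type II receptor Acvr2b, was lower in distal crypts. It lies at chr14:12065635-12090295, and its level was 7.68 FPKM in distal crypts and 23.5 FPKM in proximal crypts, 3.07-fold lower in distal crypts. The authors' deposited table gave it a log2 fold change of -1.62 (implied standard error 0.39, q 0.00147). The order of Bmp2 and Bmp3 was therefore inverted between the libraries.

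Bmp6 and Bmp7 belong to the same BMP subgroup as Bmp5 and can bind the type I receptors Acvr1 and Bmpr1a. Bmp6 was at 6.12 FPKM in distal and 2.32 FPKM in proximal crypts (2.64-fold higher), and Bmp7 at 12.5 FPKM in distal and 7.81 FPKM in proximal crypts (1.60-fold higher). Neither was called in the authors' deposited table, where Bmp6 had a log2 fold change of 1.40 (implied standard error 0.64, q 0.291). Bmp5 was low in both libraries, at 0.829 FPKM in distal and 0.0248 FPKM in proximal crypts, and no fold is given because the lower value is under the level of about 3 reads. The authors' deposited table still called it higher in the distal library, with a q of 0.0146 and a wide implied standard error of 1.47 around a log2 fold change of 5.06.

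The 2 remaining measured BMP and GDF ligands were also higher in the distal library. Bmp8a was at 2.28 FPKM in distal and 1.10 FPKM in proximal crypts. Gdf15, a stress-induced member of the superfamily that signals through the receptor GFRAL and not through Smad-coupled receptors, was at 16.5 FPKM in distal and 9.09 FPKM in proximal crypts. Both were under 2-fold on the log2 ratio and were not called in the authors' deposited table.

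Tgfb1, the main TGF-beta ligand of immune cells, was the only measured TGF-beta gene, at 2.49 FPKM in distal and 5.44 FPKM in proximal crypts. Its log2 fold change in the authors' deposited table was -1.13 (implied standard error 0.63), and it was not called (q of 0.527). Leukocyte markers were lower in the distal library as well: 7 of 10 measured markers were at least 2-fold lower, and the summed level of all 13 in the table was 25.2 FPKM in distal and 86.6 FPKM in proximal crypts. None of these 13 markers was at 0 in either library, and their part in the level of Tgfb1 was not tested. In such bulk material, fewer cells of a type and less RNA per cell cannot be told apart. Inha, which encodes the inhibin alpha chain, was at 3.09 FPKM in distal and 2.42 FPKM in proximal crypts. The activin chain gene Inhba was listed at 0 in both libraries, and Inhbb was at 0.0759 FPKM in distal and 0.120 FPKM in proximal crypts.

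**Figure D2:**
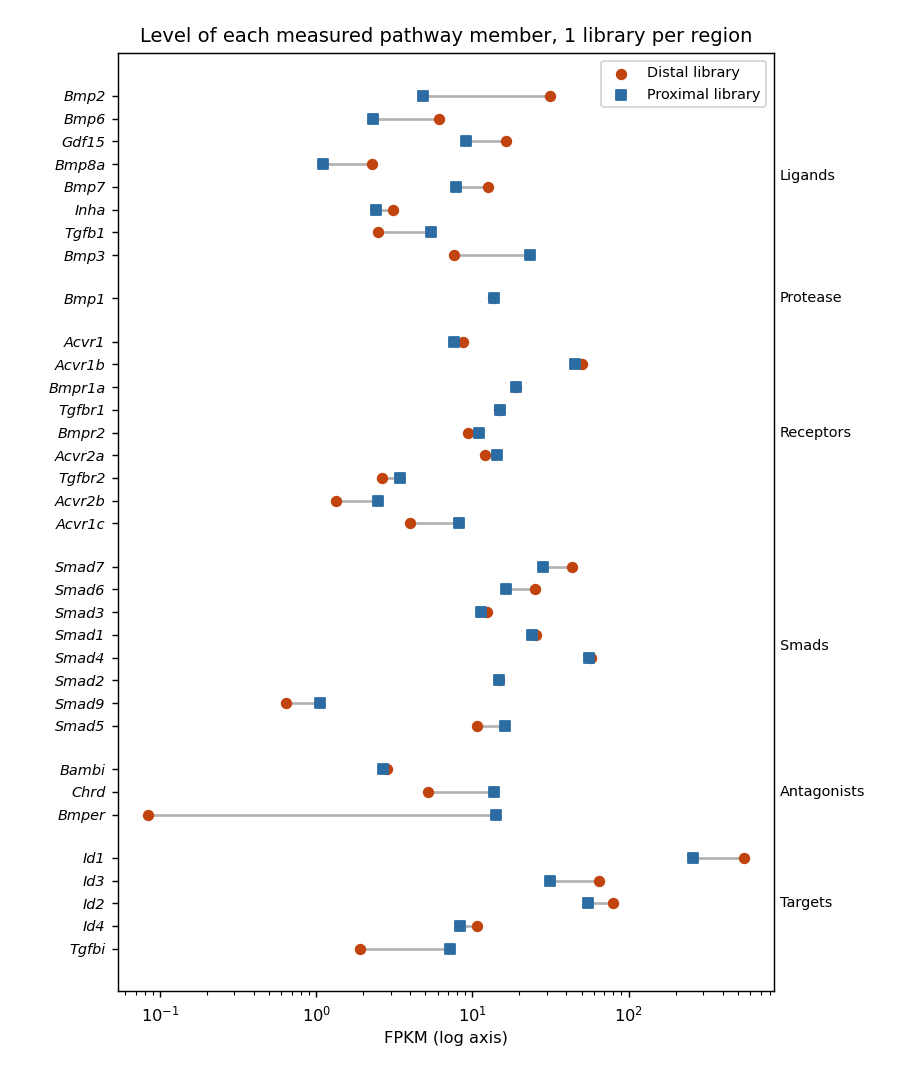
FPKM of the 34 measured members in the distal library (circles) and the proximal library (squares), on a log axis, grouped by role, with a line joining the values of a gene. The lines are short for most receptors and Smads and longest for Bmper, at 0.0840 FPKM in distal and 14.2 FPKM in proximal crypts.

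Among the secreted antagonists, Bmper and Chrd were lower in the distal library. Bmper encodes a protein with chordin-like repeats that binds BMP ligands and can hinder or help their signalling, depending on its amount, and lies at chr8:22983185-23096066 in rn4. It was at 0.0840 FPKM in distal crypts, against 14.2 FPKM in proximal crypts. In the proximal library it lay above 49.3% of measured genes, and in the distal library above 0.376%. For Bmper the authors' deposited table lists a log2 fold change of -7.40 (implied standard error 0.90, q 6.80e-14). The distal value is under the level of about 3 reads, so the size of the difference is known only roughly, and no fold is given.

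Chrd encodes chordin, which binds BMP ligands outside the cell and keeps them from their receptors, and lies at chr11:82401701-82410401 in rn4. It was at 5.19 FPKM in distal and 13.7 FPKM in proximal crypts, 2.65-fold lower in distal crypts. For Chrd the log2 fold change in the authors' deposited table was -1.40 (implied standard error 0.40, q 0.0131). Bambi, a pseudoreceptor that dampens TGF-beta and BMP signals, was nearly equal, at 2.85 FPKM in distal and 2.67 FPKM in proximal crypts.

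The remaining antagonists described here were not measured in either library. Noggin (Nog) was at 0.0545 FPKM in distal and 0.0641 FPKM in proximal crypts, and Grem1, which encodes a secreted BMP binder, was listed at 0 in both. Follistatin (Fst), an activin binder, was listed at 0 in the distal library and at 0.0968 FPKM in the proximal one, where its p in the authors' deposited table, 0.149, is the value taken to mark a single read. These antagonists, and the ligand Bmp4, at 0.156 FPKM in distal and 0.182 FPKM in proximal crypts, are known products of the stroma around crypts. Of 12 fibroblast and myofibroblast markers in the table, 10 were under 1 FPKM in both libraries, Dcn and Lum were listed at 0 in both, and the summed level was 8.62 FPKM in distal and 17.1 FPKM in proximal crypts. Most of that sum was Vim, at 7.07 FPKM in distal and 13.6 FPKM in proximal crypts. Pdgfrb, at 0.410 FPKM in distal and 2.499 FPKM in proximal crypts, was the only marker of that list at least 2-fold apart. It was called lower in distal crypts in the authors' deposited table (log2 fold change -2.61, q 0.00093).

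Epithelial markers were high in both libraries, with all 11 measured and none 2-fold apart. In the distal library 10 of them were higher and 1 lower. Their median log2 ratio was 0.42, beside 0.09 over all measured genes. The summed level was 14220 FPKM in distal and 10954 FPKM in proximal crypts. Epcam was at 1991 FPKM in distal and 1490 FPKM in proximal crypts. Besides leukocyte markers, 4 of 10 markers of hormone-producing cells were at least 2-fold lower in the distal library, among them Chga at 31.6 FPKM in distal and 89.1 FPKM in proximal crypts. One marker of that list, Pyy, was at least 2-fold higher there, and the summed level was 256 FPKM in distal and 420.1 FPKM in proximal crypts, with none of the 10 at 0. Goblet cell markers were mostly higher in the distal library, at a sum of 8264 FPKM against 3512 FPKM in the proximal library, with 4 of 8 at least 2-fold higher, 1 at least 2-fold lower and none at 0. Smooth muscle markers summed to 48.1 FPKM in distal and 31.1 FPKM in proximal crypts over 7 genes, mostly Smtn, and Des, at 2.91 FPKM in distal and 0.0398 FPKM in proximal crypts, was the one called in the authors' deposited table. Endothelial markers summed to 24.4 FPKM in distal and 8.44 FPKM in proximal crypts over 6 genes, with Cldn5 listed at 0 in both. Most of that sum was Esam, at 22.9 FPKM in distal and 6.54 FPKM in proximal crypts and called in the authors' deposited table. Pecam1, the other measured marker of that list, went the other way, at 1.29 FPKM in distal and 1.64 FPKM in proximal crypts. Glial and neuronal markers summed to 3.09 FPKM in distal and 3.79 FPKM in proximal crypts over 7 genes, with Sox10 listed at 0 in both. The part of these cell types in the levels of Bmper, Chrd, Bmp3 and Bmp2 was not tested.

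**Figure D3:**
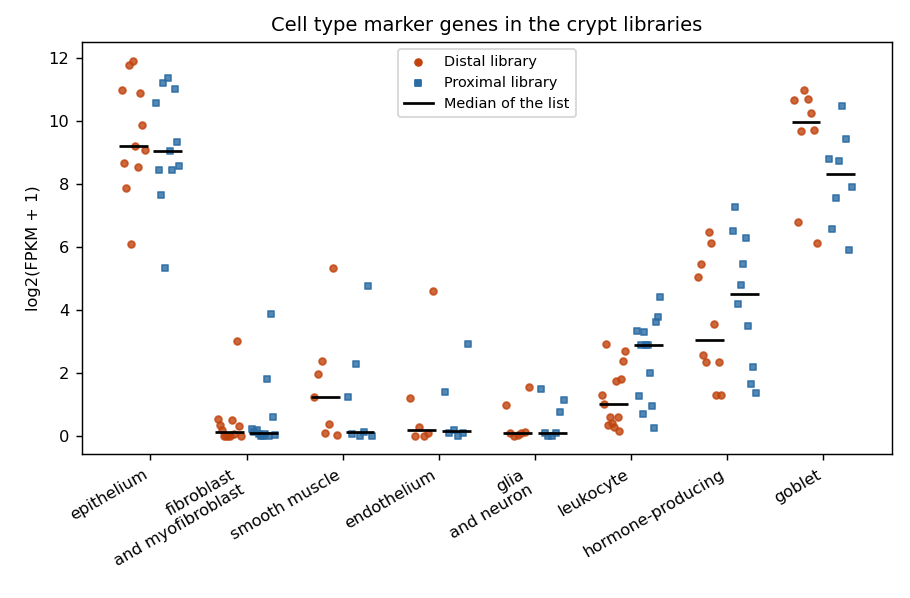
Marker genes of 8 cell types in the distal library (circles) and the proximal library (squares), as log2(FPKM + 1), with the median of each list as a bar. Epithelial markers are high and fibroblast markers near 0 in both libraries, while leukocyte markers sit lower in the distal library, at a summed 25.2 FPKM against 86.6 FPKM in the proximal one.

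On the log2 ratio no receptor difference reached 2-fold, beside 3.71% of all measured genes higher and 3.91% lower by that much. Of 12 receptor genes 9 were measured, and none was called in the authors' deposited table. That table called 2.73% of all genes marked as tested higher in distal crypts and 2.69% lower. With 9 genes, counts of 0 are near these shares. The activin type I receptor gene Acvr1b was the most abundant, at 50.0 FPKM in distal and 45.4 FPKM in proximal crypts. Next came the BMP type I receptor Bmpr1a, at 18.9 FPKM in distal and 19.1 FPKM in proximal crypts, and the TGF-beta type I receptor Tgfbr1, at 14.7 FPKM in distal and 14.9 FPKM in proximal crypts. Acvr1, a type I receptor for Bmp6 and Bmp7, was at 8.72 FPKM in distal and 7.58 FPKM in proximal crypts. For Bmpr1a and Tgfbr1 the log2 fold changes in the authors' deposited table were -0.010 and -0.018, with an implied standard error of 0.30 for each.

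All 4 type II receptors were lower in the distal library by less than 2-fold. Acvr2a, used by activins and BMPs, was at 12.04 FPKM in distal and 14.4 FPKM in proximal crypts. The BMP type II receptor Bmpr2 was at 9.41 FPKM in distal and 11.0 FPKM in proximal crypts. Tgfbr2, which binds TGF-beta and is often mutated in human colon cancers with microsatellite instability, was at 2.64 FPKM in distal and 3.45 FPKM in proximal crypts. Acvr2b was at 1.33 FPKM in distal and 2.48 FPKM in proximal crypts. Each of these 4 differences was smaller than 1.5 times its implied standard error.

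Acvr1c, which encodes the Nodal and activin receptor ALK7, was the receptor furthest apart, at 4.003 FPKM in distal and 8.26 FPKM in proximal crypts. In the authors' deposited table its log2 fold change was -1.05 (implied standard error 0.53), and it was not called (q of 0.390). With equal upper quartiles Acvr1c and Tgfb1 also passed the 2-fold mark, at log2 ratios of -1.02 and -1.003. The co-receptor Tgfbr3, the endothelial receptor Acvrl1 and Bmpr1b were under 0.5 FPKM in both libraries.

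All 8 Smad genes were measured and none was at least 2-fold apart or called in the authors' deposited table. With 8 genes, counts of 0 are near the shares of all genes given above for the receptors. Smad4, the common partner and a tumour suppressor of the colon, was the most abundant, at 57.4 FPKM in distal and 56.1 FPKM in proximal crypts. Of the BMP-linked Smads, Smad1 was at 25.7 FPKM in distal and 24.2 FPKM in proximal crypts, and Smad5 at 10.8 FPKM in distal and 16.1 FPKM in proximal crypts. Smad9 was low, at 0.642 FPKM in distal and 1.06 FPKM in proximal crypts. Of the Smads linked to TGF-beta and activin, Smad2 was at 14.7 FPKM in distal and 14.9 FPKM in proximal crypts. Smad3, whose coordinates another gene also has in the table, so that its value can hold reads of both, was at 12.4 FPKM in distal and 11.4 FPKM in proximal crypts.

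The inhibitory Smads, which block the receptors and are themselves induced by the pathway, were the Smads furthest on the distal side. Smad6, which acts mainly on BMP signals, was at 25.3 FPKM in distal and 16.5 FPKM in proximal crypts (1.54-fold higher). Smad7, which acts on TGF-beta and BMP signals, was at 43.6 FPKM in distal and 28.4 FPKM in proximal crypts (also 1.54-fold higher). For Smad7 the log2 fold change in the authors' deposited table was 0.62 (implied standard error 0.29, q 0.325), and for Smad6 it was 0.62 with 0.41 and a q of 0.705. Both stayed higher in the distal library under the 2 rescalings, at log2 ratios of 0.43 to 0.50. Bmp1, a metalloprotease that cleaves procollagen and chordin and is no BMP ligand, was at 13.5 FPKM in distal and 13.8 FPKM in proximal crypts.

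The Id genes encode inhibitors of basic helix-loop-helix factors and are direct BMP targets in many cell types. All 4 were higher in the distal library, as were 6044 of all 9847 measured genes. The 4 Id genes stayed higher there under both rescalings. Id1 (chr3:143086162-143087289 in rn4) was at 545 FPKM in distal crypts, against 259 FPKM in proximal crypts, above 99.0% of measured genes in distal and 97.8% in proximal crypts, which made it the most abundant member in both libraries. The authors' deposited table gave Id1 a log2 fold change of 1.07 (implied standard error 0.32, q 0.0191). Id3 (chr5:154934138-154935707) was at 65.0 FPKM in distal and 31.4 FPKM in proximal crypts, a 2.07-fold difference like the 2.10-fold one of Id1. In the authors' deposited table Id3 was not called (q of 0.0616), with a log2 fold change of 1.05 and an implied standard error of 0.36.

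Id2 and Id4 were less far apart. Id2 was at 79.2 FPKM in distal and 54.8 FPKM in proximal crypts (1.45-fold higher), and Id4 at 10.6 FPKM in distal and 8.31 FPKM in proximal crypts (1.28-fold higher). The summed level of the 4 Id genes was 700.3 FPKM in distal and 354 FPKM in proximal crypts, of which Id1 made up most.

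Tgfbi, named for its induction by TGF-beta, encodes a secreted matrix protein and was lower in distal crypts, unlike the Id genes. It lies at chr17:13904882-13935110 in rn4. It was at 1.92 FPKM in distal and 7.18 FPKM in proximal crypts, 3.74-fold lower in distal crypts. For Tgfbi the log2 fold change in the authors' deposited table was -1.90 (implied standard error 0.53, q 0.0105). Tgfbi is also made by macrophages, and among the leukocyte markers Lyz2, whose coordinates are shared with another gene, was at 2.50 FPKM in distal and 11.1 FPKM in proximal crypts, whereas Cd68 was at 2.30 FPKM in distal and 2.98 FPKM in proximal crypts. The part of leukocytes in the level of Tgfbi was not tested.

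**Figure D4:**
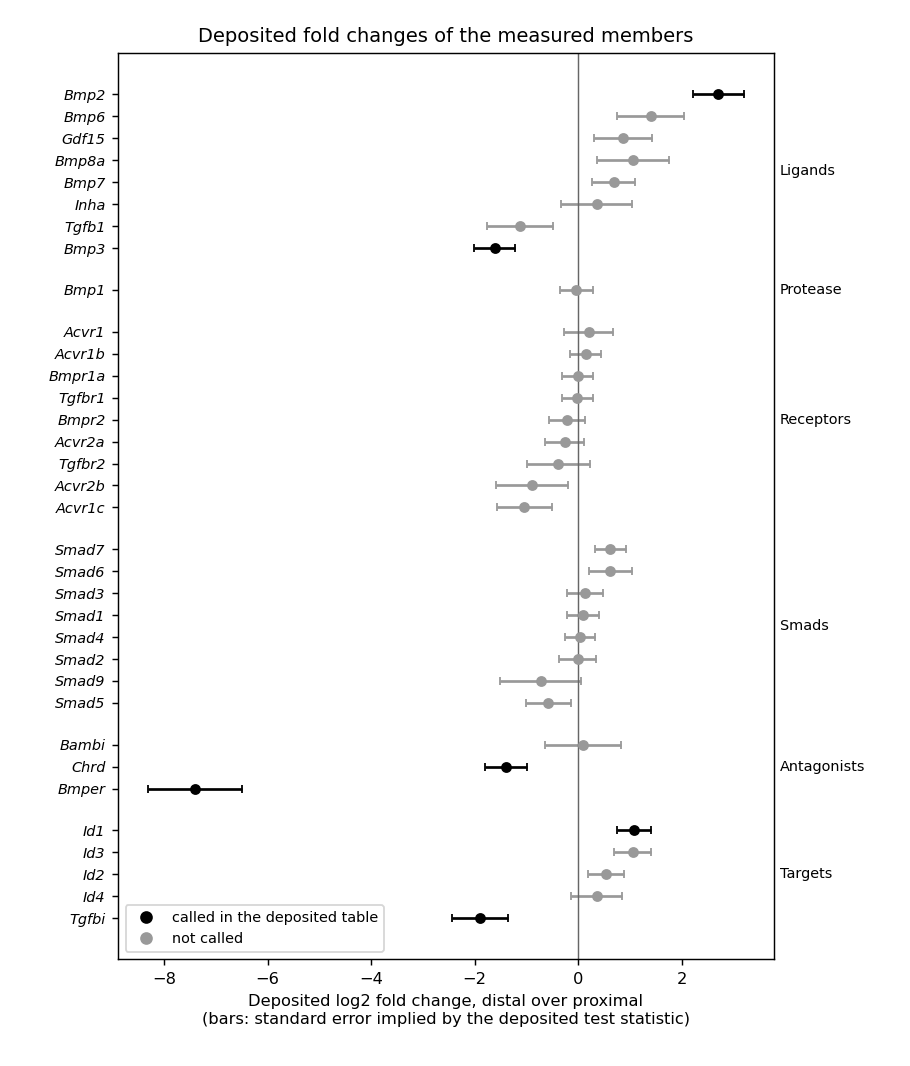
Log2 fold changes of distal over proximal from the authors' deposited table for the 34 measured members, with bars of 1 standard error implied by the deposited test statistic. Black points were called in that table: Bmp2 and Id1 on the distal side and Bmp3, Chrd, Bmper and Tgfbi on the proximal side, with Bmper furthest, at -7.40.

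The 23 members that were not measured held at most 0.829 FPKM in distal and 0.758 FPKM in proximal crypts. Listed at 0 in both were 10 of them, among them Bmp15, Gdf2, Gdf6, Gdf7, Inhba, Inhbc, Inhbe, Bmpr1b and Grem1. Besides those given above, Bmp10 and Gdf10 were listed at 0 in the proximal library and Tgfb2 in the distal library, and Gdf9 was above 0 in both. Gdf3, known from early embryos, was at 0.353 FPKM in distal and 0.758 FPKM in proximal crypts. The third TGF-beta gene, Tgfb3, was at 0.168 FPKM in distal and 0.165 FPKM in proximal crypts. No direction is drawn for these genes, apart from the call of Bmp5 in the authors' deposited table.

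Further pathway genes, listed by function, were compared in the same way. Of 84 listed genes, 68 were in the table and 34 were measured, of which 1 was higher by 2-fold or more in distal crypts (2.94%, against 3.71% of all measured genes) and 4 were at least 2-fold lower (11.8%, against 3.91%). Their median log2 ratio was 0.18. The authors' deposited table called 1 of the 36 marked as tested higher in the distal library, Cdkn1a (2.78%, against 2.73% of all genes so marked), and 2 lower, Pcsk6 and Hipk2 (5.56%, against 2.69%). The counts on the distal side were thus near those of all genes.

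Pcsk6, a proprotein convertase that processes TGF-beta family precursors, was at 3.31 FPKM in distal and 8.24 FPKM in proximal crypts (2.48-fold lower), with a q of 0.0426 in the authors' deposited table. Furin, the main convertase of these precursors, was at 70.1 FPKM in distal and 50.3 FPKM in proximal crypts. The integrin chain Itgb6, which helps to activate latent TGF-beta in epithelia, was at 14.6 FPKM in distal and 15.7 FPKM in proximal crypts. The latent TGF-beta binding proteins Ltbp1 to Ltbp4 were under 1 FPKM in both libraries.

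Of 16 intracellular regulators, 15 were measured. Hipk2, a kinase that takes part in repression of BMP target genes, was at 3.09 FPKM in distal and 9.65 FPKM in proximal crypts (3.12-fold lower), with a q of 0.00175 in the authors' deposited table. Pmepa1, a TGF-beta-induced gene whose product binds Smad2 and Smad3 and dampens the signal, was at 13.2 FPKM in distal and 5.96 FPKM in proximal crypts and was not called in that table (q of 0.521). In the distal library the most abundant regulators were Tob1, a repressor of proliferation that binds BMP Smads, at 158 FPKM in distal and 115 FPKM in proximal crypts, and the Smad phosphatase Ppm1a, at 62.1 FPKM in distal and 48.3 FPKM in proximal crypts. The ubiquitin ligases Smurf1 and Smurf2, which mark Smads and receptors for destruction, were less than 2-fold apart.

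Among 13 other measured targets, none was at least 2-fold higher and 2 were at least 2-fold lower in the distal library. Runx3, which is also a lymphocyte factor, was at 1.33 FPKM in distal and 5.05 FPKM in proximal crypts, and Gata2, which is also a factor of blood cells, at 1.12 FPKM in distal and 3.52 FPKM in proximal crypts. Neither was called in the authors' deposited table. Cdkn1a, a cell cycle inhibitor, was at 105 FPKM in distal and 53.5 FPKM in proximal crypts, just under 2-fold, and had a q of 0.0224 in the authors' deposited table. Junb, which is also an immediate early gene, was the most abundant, at 229 FPKM in distal and 137 FPKM in proximal crypts. The secreted modulators Crim1 and Twsg1 were the only measured genes of their group, with log2 ratios of -0.22 and -0.019. Crim1 was at 14.4 FPKM in distal and 16.9 FPKM in proximal crypts, and Twsg1 at 10.8 FPKM in distal and 10.9 FPKM in proximal crypts. None of 5 other ligands and 3 other receptors or co-receptors was measured. Highest of these ligands were the Nodal inhibitor Lefty1, at 0.326 FPKM in distal crypts and listed at 0 in proximal crypts, and Amh, the anti-Müllerian hormone, at 0.0548 FPKM in distal and 0.192 FPKM in proximal crypts. The BMP co-receptor Rgma was at 0.391 FPKM in distal and 0.540 FPKM in proximal crypts, and Amhr2, the receptor of Amh, at 0.132 FPKM in distal and 0.155 FPKM in proximal crypts.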

How the data were processed

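RNA of distal and proximal colon crypts was analysed from 1 library each. Per the submitters' processing notes, CASAVA, TopHat2 and the build rn4 go with these samples. Which program wrote the table is not stated in the labels or the file. From their form, the deposited expression values are FPKM. The deposited log2 fold change (distal over proximal) and test statistic were handled as score columns, because they hold a placeholder where 1 value is 0. The deposited p-value equals the two-sided normal tail of the test statistic to within 2.76e-06, so fold change over statistic gave the implied standard error. The q-values and calls are the authors', and the largest q called was 0.0495.

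Of 16492 rows, 23 marked as low in data or failed and 1 repeated row were left out. Values are as deposited, and the log2 ratio used a pseudocount of 1 FPKM. Measured meant at least 1 FPKM in 1 library. No test was made, with 1 library per group. The members, roles and gene lists were chosen with earlier results of these data known. The values of 1 member are not reported here. Named genes are all measured members, the other pathway genes at least 2-fold apart and the 2 highest of each group; Ltbp1 to Ltbp4, Smurf1, Smurf2 and the single marker genes were named after their values were seen.

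Read totals are not given, so depth is known only roughly. The deposited p most common where only 1 library is above 0, taken as 1 read, was 0.169 for distal and 0.149 for proximal crypts. At olfactory receptor genes, of a median 943.5 and 942 bases, it stood for 0.113 FPKM (4 genes, distal) and 0.142 FPKM (8 genes, proximal). Folds with a lower value under 0.426 FPKM, about 3 reads of such a gene, were not printed. The median implied standard error was 0.67 on the log2 scale for genes of 1 to 5 FPKM, 0.42 for 5 to 20 FPKM and 0.31 above. FPKM summed to 463561 over distal and 413026 over proximal crypts. Arithmetic used Python 3.11.15 with pandas 2.3.3 and was tested on simulated data.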

Additional observations from a re-analysis of the deposited data

How the results depend on the processing

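No paired analysis was possible because each region had 1 library. Of the 34 measured members, no one called or at least 2-fold apart changed direction under 2 other pseudocounts, 2 rescalings or the deposited fold change. None could have, so this is no check. A pseudocount keeps the direction, and the deposited fold change comes from the same values. The rescaling factors were only -0.10 and -0.17 on the log2 scale, against log2 ratios of at least 1 in size. Of the single values of the 34 members under these settings, 165 moved by less than the implied standard error. The other 5 were of Bmper, Bmp2 and Tgfbi. The members at least 2-fold higher and lower in the distal library numbered 4 and 4, beside 3.71% and 3.91% of all measured genes. They were 2 and 2 with 5 FPKM added in place of 1 (all genes 1.99% and 1.28%). With 0.1 FPKM added they were 4 and 6 (4.92% and 6.27%). At 1.5-fold they were 9 and 6 (9.19% and 8.12%), and at 4-fold 1 and 1 (0.884% and 0.751%). Rescaling to a median of 0 gave 2 and 4 (3.15% and 4.34%), and equal upper quartiles 1 and 6 (2.88% and 4.71%). The median log2 ratio of members, 0.05, was -0.040 and -0.11 under these rescalings, and 0 with no minimum. Other pathway genes numbered 1 and 4, and 0 and 0 with 5 FPKM added or at 4-fold. They were 0 and 5 under both rescalings, and 5 and 5 at 1.5-fold. The shares of all genes to set beside them are those given for the members. At an unadjusted deposited p under 0.05 there were 6 members higher and 5 lower in the distal library, beside 6.39% and 5.66% of all genes marked as tested. Leaving out Smad3, the member that shares a locus, changed no count. Members under about 0.43 FPKM are limited by depth.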

Other observations

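The nearest measured genes on both sides of the 8 members at least 2-fold apart were looked up in the table's own build. Of these 16 neighbours, 2.15 to 1543 kb away, 1 was at least 2-fold apart, beside 3.71% of all measured genes higher and 3.91% lower by that much, so the count is near the share of all genes. This was Prkg2, which encodes a cyclic GMP-dependent protein kinase of the intestinal epithelium and lies 60.1 kb from Bmp3. Prkg2 was at 9.34 FPKM in distal and 50.4 FPKM in proximal crypts, on the same side as Bmp3, and was called in the authors' deposited table. Next to Bmp2, Fermt1 was at 24.3 FPKM in distal and 27.1 FPKM in proximal crypts. Next to Id1, Hm13 was at 78.5 FPKM and Bcl2l1 at 8.62 FPKM in the distal library, against 62.1 FPKM and 7.24 FPKM in the proximal library. Smad5 is the neighbour of Tgfbi, 80.5 kb away, and was 1.497-fold lower in the distal library. Whether neighbouring genes share a cause was not tested.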
